A study of Rattus norvegicus with 24 samples.

Results

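The Janus kinase (JAK) and STAT genes and their SOCS inhibitors were followed in the peripheral blood of rats injected with bacterial lipopolysaccharide (LPS) and fed oat beta-glucan. The 10 genes were Jak1, Jak2, Stat3, Stat4, Stat5b, Stat6, Socs1, Socs2, Socs3 and Cish. Every probe that was not a control and whose gene name in the array files equals a member was taken, which gave 11 of the 30367 probes and 10 of the 21654 gene names. Cish had 2 probes and each of the other 9 genes had 1. Cish probe 1, well above background on more arrays, stands for Cish below.

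Each of 24 Agilent arrays of rat genes carried blood RNA from 1 rat in one dye and, in the other dye, a common reference made of blood RNA pooled from rats of the experiment. There were 6 groups with 4 arrays in each. All rats were male Sprague Dawley, 8 weeks old, and were kept for 6 weeks on a semi-synthetic diet. In C-G0, C-G1 and C-G2 they received saline by the tail vein, and those of the 3 LPS groups, named by the same diets, received Escherichia coli LPS at 10 mg per kg of body weight, in repeated injections. G0 is the diet without beta-glucan, G1 the diet with oat beta-glucan of high molecular weight and G2 that with beta-glucan of low molecular weight. Blood was drawn at the end of the feeding period. The interval since the last injection is not given in the sources used here. For LPS-G0 replicates 3 and 4 the sample titles name LPS while another field names the control, and the differences that use LPS-G0 are also given without them. Values are the log2 ratio of the Cy3 signal (the rat's RNA by the sample labels, although the study's methods name the dyes the other way round) over the Cy5 signal (the reference), so that 0 is the level of the pool. With the dyes as the methods give them, every sign below would turn, and the Cy5 detection counts given below would be those of the rats. For 7074 probes the SD within groups had a median of 0.353 in Cy3 and 0.195 in Cy5, and it was larger in Cy3 for 96.7% of them. A probe is called well above background, or detected, as the scanner software marks its spots.

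Cytokine receptors lack a kinase of their own and carry JAKs on their inner side. A bound cytokine brings the JAKs together, they phosphorylate the receptor, and STAT proteins dock there, are phosphorylated in turn, pair and enter the nucleus. The genes that STATs switch on include those of the SOCS family and Cish, whose proteins block the receptor or the kinase and so close a feedback loop. In blood, IL-6 and IL-10 act mainly through STAT3, IL-12 through STAT4, IL-2 and growth factors such as erythropoietin through STAT5, and IL-4 and IL-13 through STAT6. Phosphorylation is not seen by an expression array, which measures the transcripts of these proteins only.

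The start of the 3 inhibitor genes with a promoter window is shown first, since STATs are known to bind TTCNNNGAA in the promoters of their feedback inhibitors. The sequences are the 250 bases before the transcription start, from RefSeq on the GRCr8 build, 5′ to 3′ on the strand of the gene, with each TTCNNNGAA in capitals.
Cish, chr8:116850719-116850968, plus strand: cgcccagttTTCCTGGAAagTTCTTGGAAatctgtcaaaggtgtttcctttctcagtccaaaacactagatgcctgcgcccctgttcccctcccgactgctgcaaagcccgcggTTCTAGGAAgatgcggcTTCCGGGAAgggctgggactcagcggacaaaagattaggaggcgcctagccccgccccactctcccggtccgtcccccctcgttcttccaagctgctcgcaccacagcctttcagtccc
Socs1, chr10:5389324-5389573, plus strand: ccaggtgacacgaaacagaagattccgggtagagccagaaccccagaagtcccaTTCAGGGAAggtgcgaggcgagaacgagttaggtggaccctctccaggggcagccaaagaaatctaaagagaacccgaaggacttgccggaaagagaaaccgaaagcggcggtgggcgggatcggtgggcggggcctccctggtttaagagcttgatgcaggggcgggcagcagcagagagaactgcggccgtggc
Socs3, chr10:103694769-103695018, minus strand: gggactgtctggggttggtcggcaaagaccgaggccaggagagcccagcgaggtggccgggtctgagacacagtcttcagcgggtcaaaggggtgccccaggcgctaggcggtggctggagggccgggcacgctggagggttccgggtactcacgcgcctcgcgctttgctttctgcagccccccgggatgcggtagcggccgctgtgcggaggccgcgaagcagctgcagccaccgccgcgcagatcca
The motif reads the same on both strands, so 1 search covers both, and no match overlapped another. The window searched holds 300 bases, 250 before and 50 after the start. Cish held 4 matches, at 241, 230, 136 and 119 bases before the start. Socs1 held 1 match, at 196 bases before the start, and the windows of Socs3, Stat3, Stat4, Stat5b, Stat6 and Jak2 held 0. Of 33469 rat promoter windows of this length, 8.87% held at least 1 match, 0.547% held at least 2, and 2 windows held 4 or more, that of Cish among them. A match is a description of the letters and not a measured binding site. For Socs2 and Jak1 no window was read.

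The probes are 60 bases long. The first 30 bases of 4 of them are shown, both Cish probes because they gave different values and the Stat3 and Stat6 probes because the 2 smallest p-values came from them. They are written 5′ to 3′.
Cish probe 1: aactgtgtctattctcccagccctggtttc
Cish probe 2: cctgtttacattgtcagtcaaaaccacccg
Stat3 probe: cactcaaattccaatgtatactttctagtg
Stat6 probe: tcctcacagatagagaacatccagccgttt
On the rn4 build, which the array files use, Cish probe 1 lies at chr8:112545330-112545389 and probe 2 at chr8:112544581-112544640, in the same gene. The Stat3 probe lies at chr10:89821145-89821204 and has the lowest GC content of the 11, 25%. The Stat6 probe lies at chr7:67639581-67639640 and has a GC content of 48.3%. The other probes lie at chr5:121805280-121805339 (Jak1), chr1:232974483-232974542 (Jak2), chr9:46514898-46514957 (Stat4), chr10:89722209-89722268 (Stat5b), chr10:4820384-4820443 (Socs1), chr7:32605827-32605886 (Socs2) and chr10:107958636-107958695 (Socs3). Whether a probe lies in a coding or an untranslated part was not annotated here.

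With the dyes as the labels give them, the kinases and most of the STATs were detected in nearly every rat, and the inhibitors in fewer. Jak1, Jak2, Stat3 and Stat6 were well above background in the rat channel on 24 of 24 arrays and Stat4 on 23. Of the inhibitors, Socs3, which acts on receptors of the IL-6 type, was detected on 19 arrays. Cish, an inhibitor that STAT5 induces, was detected by probe 1 on 13 arrays and by probe 2 on 9. Socs1, which blocks the kinase domain of JAKs, was detected on 6 arrays, and Socs2, an inhibitor of growth hormone signaling, on 0. Stat5b, which growth hormone and other growth factors activate, was also detected on 0 arrays. Over all probes of the array, 23.3% were detected on 24 arrays and 32.7% on 0.

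The reference channel gave another picture for the same probes. Stat5b was detected in Cy5 on 22 arrays, Socs1 on 21, Cish probe 1 on 24 and Cish probe 2 on 22. Socs3 was detected in Cy5 on 24 arrays and Socs2 on 1. Which genes entered the tests would change too if Cy5 held the rats' RNA. A probe that was dim in Cy3 on every array and detected in Cy5 on at least 20, as Stat5b was, made up 0.501% of all probes. The reference channel had more detected probes than the rat channel on every array, with 14405 to 22451 against 7788 to 15389.

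**Figure D1:**
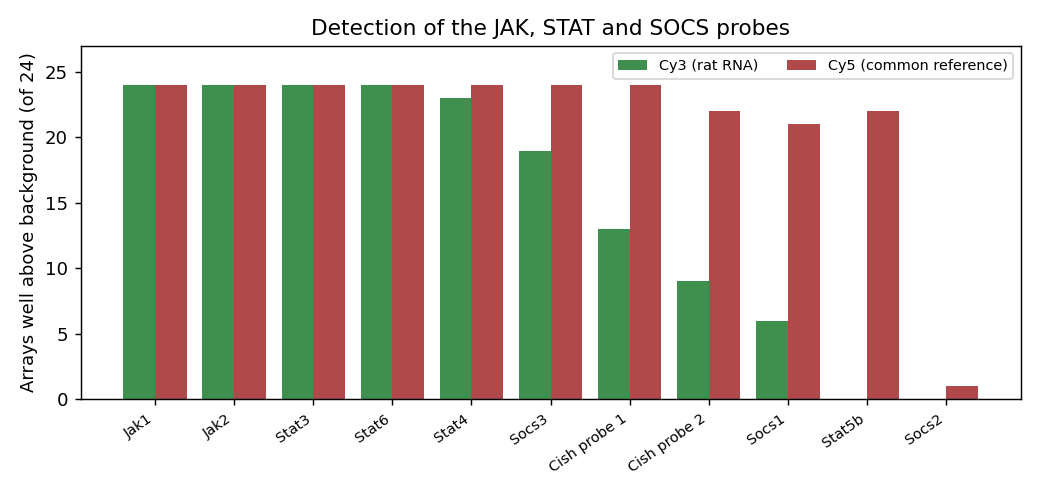
The bars give, for each of the 11 probes, the number of the 24 arrays on which it was well above background in Cy3 (the rat's RNA) and in Cy5 (the common reference). Jak1, Jak2, Stat3 and Stat6 reach 24 in both channels, while Stat5b is at 0 in Cy3 and 22 in Cy5 and Socs2 is at 0 and 1.

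Detection of the inhibitors moved with the slide. The arrays lay on 3 slides of 8, each of which held all 6 groups, and the median number of detected probes per array was 11204 on slide 1, 10564.5 on slide 2 and 13535.5 on slide 3. Socs3 was detected on 8, 3 and 8 arrays of slides 1, 2 and 3. Cish probe 1 was detected on 5, 1 and 7 arrays, Cish probe 2 on 1, 0 and 8, and Socs1 on 2, 0 and 4. All 4 readings were lowest on slide 2, and the part of the slide in them was not tested. Between LPS and saline the counts lay close together for Cish and Socs1, and that of Socs3 was lower in LPS. Socs3 was detected on 8 of 12 LPS arrays and 11 of 12 saline arrays, Cish probe 1 on 7 and 6, Cish probe 2 on 5 and 4, and Socs1 on 3 and 3.

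A probe was tested when it was detected on all 4 arrays of at least 1 group in the fit. Jak1, Jak2, Stat3, Stat4 and Stat6 passed this filter in both fits, and Socs3 in the fit of all 24 arrays, through C-G1 and C-G2. Socs1, Socs2, Cish and Stat5b were not tested in any comparison. The 12 comparisons gave 68 tests of members, and the limma adjusted p fell under 0.05 in 0 of these. Over all probes 8.93% passed the adjusted p in LPS-G1 vs. LPS-G0, and 0% to 0.028% in each of the other comparisons, with 0.00934% in LPS-G1 vs. C-G1. At an unadjusted p under 0.05 there were 2, Stat6 in C-G1 vs. C-G0 and Stat3 in LPS against saline over the 3 diets. The smallest adjusted p of a member was 0.136 and the largest difference was 0.53 on the log2 scale. The 95% interval of the difference lay within 2-fold in either direction in 65 of 68 tests, so a change of 2-fold, the size the study asked for, lay outside the interval there. The exceptions were Stat3 in LPS-G0 vs. C-G0 and in LPS-G1 vs. C-G1, and Stat4 in the LPS response on G1 minus that on G0. Socs3 entered through C-G1 and C-G2. It was dim on some arrays of each other group, and its intervals with those do not decide on a 2-fold change.

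These counts stand beside those of all probes tested. In the comparisons on LPS-G0, an unadjusted p under 0.05 was reached by 15.2% of probes against C-G0, by 26.9% with LPS-G1 and by 8.23% with LPS-G2. It was reached by 13.3% in C-G2 vs. C-G0, 15.4% in C-G1 vs. C-G2, 2.81% in LPS-G1 vs. C-G1 and 1.09% in LPS-G2 vs. C-G2. For the LPS response on G1 or G2 minus that on G0 the shares were 3.01% and 5.57%. The interval lay within 2-fold for 84.7% of probes in LPS-G0 vs. C-G0, 74.7% in LPS-G1 vs. LPS-G0, 88.6% in LPS-G2 vs. LPS-G0 and 87.6% in LPS-G1 vs. LPS-G2. It did so for 70.9% in C-G1 vs. C-G0, 81.2% in C-G2 vs. C-G0, 76.6% in C-G1 vs. C-G2, 87% in LPS-G1 vs. C-G1, 89.4% in LPS-G2 vs. C-G2 and 98.7% in LPS against saline over the 3 diets. For the LPS response on G1 or G2 minus that on G0 it did so for 64.1% and 58.7%.

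**Figure D2:**
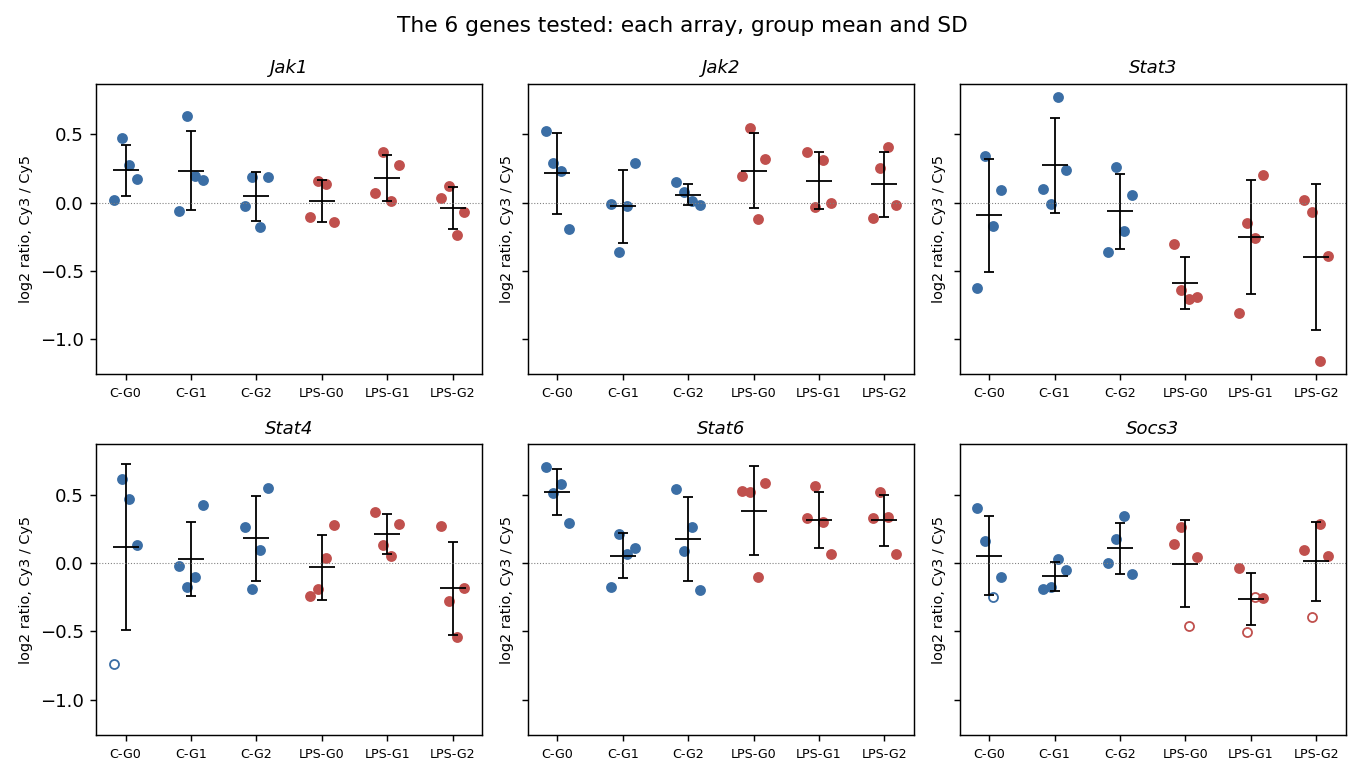
Each point is the log2 ratio of Cy3 over Cy5 on 1 array for the 6 genes tested, in blue for saline and red for LPS, with an open point where the probe was not well above background in Cy3. The bars are the mean and SD of the 4 arrays. The LPS arrays of Stat3 lie between -1.16 and 0.20 and the saline arrays between -0.63 and 0.78, and among the pairs of groups compared only those of Stat6 in C-G0 and C-G1 do not overlap.

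The kinases varied least. Jak1, which serves the receptors of interferons, IL-6 and the common gamma chain, had an SD of 0.206 over the 24 arrays. Its group means ran from -0.04 ± 0.16 (SD, n = 4) in LPS-G2 to 0.24 ± 0.19 in C-G0. Neighbouring groups in this order overlapped. In LPS-G0 vs. C-G0 Jak1 differed by -0.23 (SE 0.14, limma adjusted p = 0.47), and in LPS-G1 vs. LPS-G0 by 0.17 (SE 0.14, adjusted p = 0.442). The 95% interval of the first ran from -0.53 to 0.08 and that of the second from -0.13 to 0.48. These differences were -0.21 and 0.16 without LPS-G0 replicates 3 and 4.

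Jak2, the kinase of the receptors of erythropoietin, growth hormone and IL-12, had an SD of 0.232. Its means ran from -0.03 ± 0.27 in C-G1 to 0.23 ± 0.28 in LPS-G0, with C-G0 close to the top at 0.21 ± 0.30. In C-G0 the 4 arrays read 0.53, 0.29, 0.23 and -0.19, and in C-G1 they read -0.01, -0.36, -0.03 and 0.29. These groups overlapped, and the difference of -0.24 (SE 0.18) had a limma adjusted p of 0.352. LPS over saline gave 0.09 (SE 0.10) over the 3 diets, with a 95% interval of -0.12 to 0.31, and 0.14 without LPS-G0 replicates 3 and 4.

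Among the STATs, Stat3 had the widest spread of the 6 genes tested, an SD of 0.438. It is the STAT that IL-6, IL-10 and granulocyte colony-stimulating factor activate. Its probe had 1 spot per array, so that no spots could be averaged. In C-G0 the arrays read -0.63, 0.34, -0.17 and 0.09. In LPS-G0 they read -0.31, -0.64, -0.71 and -0.69. In this pair 3 of 4 LPS arrays lay below the lowest saline array, and the groups overlapped through the other. With beta-glucan G1, the saline rats read 0.10, -0.01, 0.78 and 0.24. The LPS-G1 rats read -0.81, -0.15, -0.26 and 0.20. With G2, the saline rats read -0.37, 0.26, -0.21 and 0.06. The LPS-G2 rats read 0.02, -0.07, -1.16 and -0.39. In both diets the ranges of LPS and saline overlapped. Of the 12 LPS arrays 10 read below 0, against 5 of the 12 saline arrays.

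The order of the Stat3 means was C-G1 at 0.27 ± 0.35, C-G2 at -0.06 ± 0.28, C-G0 at -0.09 ± 0.41, LPS-G1 at -0.26 ± 0.42, LPS-G2 at -0.40 ± 0.54 and LPS-G0 at -0.59 ± 0.19. The 3 saline groups stood above the 3 LPS groups, while the arrays of neighbouring groups overlapped. LPS differed from saline by -0.49 (SE 0.27) on the G0 diet, by -0.53 (SE 0.26) on G1 and by -0.34 (SE 0.26) on G2, with limma adjusted p of 0.389, 0.95 and 1. The exact permutation test over the 70 arrangements of 4 against 4 arrays, whose smallest two-sided p is 0.0286, gave p = 0.0571, 0.0857 and 0.343. Over the 3 diets the difference was -0.45 (SE 0.15, 95% interval -0.76 to -0.14), a level 1.37 times lower in LPS. The unadjusted limma p was 0.00587 and the exact permutation test within diets gave 0.00557, while the adjusted p was 0.516. Of the 10708 probes tested, 9.61% had an unadjusted p under 0.05 in this comparison, 2.14% of the probes tested were lower in LPS at it, and 0.0187% passed the adjusted p.

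Within the slides, the Stat3 difference over the 3 diets was -0.28 on slide 1, -0.49 on slide 2 and -0.51 on slide 3. Without LPS-G0 replicates 3 and 4, whose labels conflict, it was -0.42 with an unadjusted p of 0.0219, and in LPS-G0 vs. C-G0 alone it was -0.38 with an unadjusted p of 0.289. Leaving out single arrays gave values from -0.51 to -0.37. With another background correction, normexp, it was -0.24 (unadjusted p = 0.0138), a smaller difference in the same direction. The LPS difference of Stat3 did not differ detectably between diets, since the G1 diet minus the G0 diet gave -0.03 (SE 0.37, 95% interval -0.79 to 0.72) and the G2 diet minus the G0 diet gave 0.16 (SE 0.37, 95% interval -0.60 to 0.91). Leaving out LPS-G0 replicates 3 and 4 gave -0.15 and 0.04.

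Cell markers were read in the same comparison as Stat3. In bulk blood, fewer cells of a type and less RNA per cell cannot be told apart. Of the 48 marker genes of 8 blood cell lists 47 were on the array, 33 were detected on all 24 arrays and 39 were tested. In LPS against saline over the 3 diets 0 of 39 passed the adjusted p, and 5 had an unadjusted p under 0.05, all higher in LPS (4 without LPS-G0 replicates 3 and 4, also higher). They were Nkg7 and Gzma of cytotoxic cells, Lck of T cells and Mki67 and Cdk1 of cell division. The other T cell markers tested had negative differences, and the median of the T cell list was -0.096. Of all probes tested, 9.61% had an unadjusted p under 0.05 in this comparison. Neutrophil markers, 4 of which were tested, had 0 at an unadjusted p under 0.05 and a median difference of -0.23. In LPS-G0 vs. C-G0, 3 of those 4 were lower and all 5 tested markers of cytotoxic T and NK cells were higher at an unadjusted p under 0.05, with medians of -0.58 and 0.87. In that pair 12 of the 39 markers tested reached it, 7 higher and 5 lower, beside 15.2% of all probes tested. Without LPS-G0 replicates 3 and 4 the cytotoxic count was 5 of 5 (median 1.08) and the neutrophil count 0 of 4 (median -0.58). The mean of the neutrophil list ran from -0.98 to -0.48 over the LPS-G0 arrays and from -0.58 to 0.05 over the C-G0 arrays. Of the defining neutrophil markers S100a8, S100a9, Camp and Cxcr2 were detected on 24 arrays, Mmp8 on 6 and Mmp9 on 3. The monocyte marker Cd163 was detected on 0. The part of these cells in the Stat3 values was not tested.

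Stat4, the STAT of IL-12 signaling in T and NK cells, had an SD of 0.339. Its lowest array was C-G0 replicate 1 at -0.74, the only one on which the probe was not well above background. The other C-G0 arrays read 0.62, 0.47 and 0.13. The highest group mean was 0.21 ± 0.15 in LPS-G1 and the lowest -0.18 ± 0.34 in LPS-G2. LPS-G1 read 0.38, 0.13, 0.06 and 0.29, and LPS-G2 read 0.27, -0.28, -0.54 and -0.19. The difference between these groups was 0.40 (SE 0.25, 95% interval -0.13 to 0.92), with a limma adjusted p of 0.684 and an exact permutation p of 0.0857. In that comparison 0% of probes passed the adjusted p and 6.68% an unadjusted p under 0.05. The point estimates of the 5 members tested ran from 0.003 for Stat6 and 0.03 for Jak2 to 0.40 for Stat4. Their median was 0.145 against 0.0236 over all probes, and the smallest limma adjusted p was 0.684. The 5 genes were read on the same arrays.

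Stat6, the STAT of IL-4 and IL-13, gave the other unadjusted p under 0.05. In C-G0 the 4 arrays read 0.70, 0.51, 0.58 and 0.30. In C-G1, rats on the high-molecular-weight beta-glucan without LPS, they read -0.17, 0.21, 0.07 and 0.11. Every C-G1 array lay below every C-G0 array. The difference was -0.47 (SE 0.18, 95% interval -0.83 to -0.10), a level 1.38 times lower with G1. The unadjusted limma p was 0.0144 and the exact permutation p was 0.0286, the smallest that the 70 arrangements allow, while the adjusted p was 0.136. Of all probes tested in C-G1 vs. C-G0, 27.9% had an unadjusted p under 0.05 and 15.8% were lower at it. In 7.04% the groups did not overlap, in 3.97% with C-G1 lower, and 0.028% passed the adjusted p. The point estimates of the 6 members tested ran from -0.47 for Stat6 to 0.37 for Stat3. Stat6 was the 1 that reached an unadjusted p under 0.05.

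C-G2 read 0.55, 0.09, 0.27 and -0.19 for Stat6, which overlaps C-G0. It differed from C-G0 by -0.35 (SE 0.18, 95% interval -0.71 to 0.02), with a limma adjusted p of 0.401 and an exact permutation p of 0.114. Among all probes 0.028% passed the adjusted p in C-G2 vs. C-G0. C-G1 and C-G2 differed by -0.12 (SE 0.18, 95% interval -0.49 to 0.24). After LPS the group means were 0.39 ± 0.33 on the G0 diet, 0.32 ± 0.20 on G1 and 0.32 ± 0.19 on G2. LPS-G1 vs. LPS-G0 gave -0.07 (SE 0.17, 95% interval -0.43 to 0.30), and -0.21 without LPS-G0 replicates 3 and 4, the first of which read -0.10. From the highest mean to the lowest the order was C-G0, then the LPS groups on G0, G1 and G2, then C-G2 and C-G1, and the arrays of neighbouring groups overlapped. The LPS response on G1 minus that on G0 was 0.40 (SE 0.25, 95% interval -0.12 to 0.92, limma adjusted p = 0.999) and 0.26 without those arrays, so the diet effect on Stat6 was not shown to differ with LPS.

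Cell markers were read in the same pair of groups. Of the 39 tested, 12 had an unadjusted p under 0.05, beside 27.9% of all probes tested. In C-G1 vs. C-G0, 4 of 6 erythroid markers and 3 of 4 tested cell division markers were lower at an unadjusted p under 0.05, with medians of -1.05 and -0.73 over the lists. The mean of the erythroid list ran from -1.39 to -0.28 over the C-G1 arrays and from -0.14 to 0.36 over the C-G0 arrays. Higher in C-G1 at an unadjusted p under 0.05 were 2 of 4 monocyte markers, Fcgr3a at 1.45 (SE 0.36) and Lyz2 at 0.68 (SE 0.31), and 2 of 5 of cytotoxic T and NK cells, Gzma at 0.78 (SE 0.35) and Klrd1 at 0.62 (SE 0.25). Of 4 B cell markers 1, Pax5, was lower. Of the 39 markers tested 0 passed the adjusted p there. The part of these cells in the Stat6 values was not tested. Without C-G1 replicate 1 the Stat6 difference was -0.39 with an unadjusted p of 0.0526, and in the Cy3 channel alone it was -0.31 with an unadjusted p of 0.169.

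**Figure D3:**
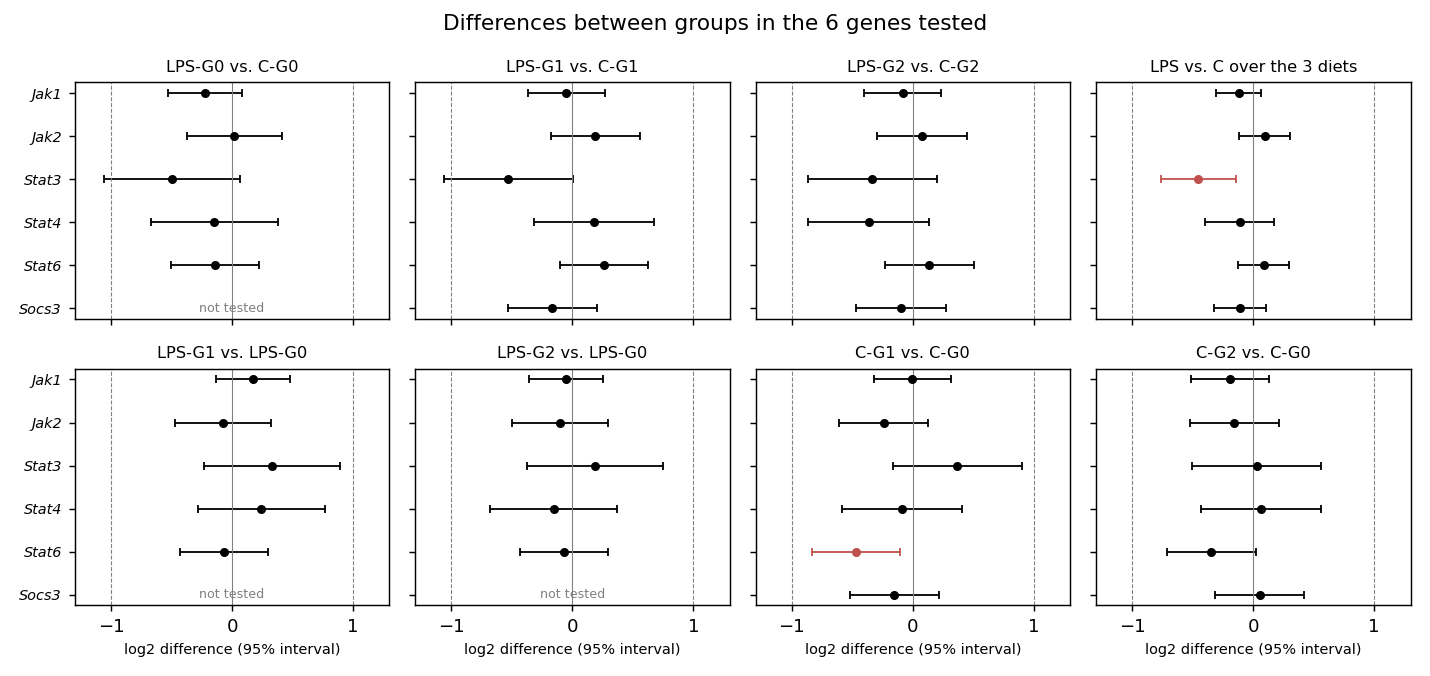
Points are the log2 differences between groups for the 6 genes tested and bars their 95% intervals in the limma fit, in 8 of the 12 comparisons, with dashed lines at 2-fold. The intervals in red exclude 0, those of Stat3 in LPS against saline over the 3 diets (-0.76 to -0.14) and of Stat6 in C-G1 vs. C-G0 (-0.83 to -0.10), and neither passed the adjusted p.

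Stat5b was dim in Cy3 in every group, so with the dyes of the labels its ratio is no measured level of the rats and no fold is given. Its ratios lay below 0 on 10 of 12 LPS and 11 of 12 saline arrays.

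Of the inhibitors, Socs3 alone could be tested, in the fit of 24 arrays. It was highest in C-G2, where the arrays read 0.00, 0.18, 0.34 and -0.08, and lowest in LPS-G1, where they read -0.04, -0.50, -0.25 and -0.25. In C-G2 4 of 4 arrays detected it, and in LPS-G1 2 of 4. LPS differed from saline by -0.11 (SE 0.10, 95% interval -0.32 to 0.11) over the 3 diets, with a limma adjusted p of 0.749, and by -0.04 without LPS-G0 replicates 3 and 4. On slide 2, where 5 of 8 arrays were dim, the difference was -0.36, against 0.06 and -0.01 on slides 1 and 3. Of LPS-G1 vs. C-G1 the 95% interval was -0.54 to 0.20. Socs3 entered the fit through C-G1 and C-G2, both saline groups, and was detected on 2 of 4 LPS-G1 arrays. The interval therefore cannot decide on a rise with LPS.

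The Cish probes did not give the same values. Over the 24 arrays their ratios had a Pearson r of 0.107, a description over arrays that share slides, and both probes were detected on 8 arrays. On C-G0 replicate 3, probe 2 read 2.10 and probe 1 read -0.79, and neither was detected there. Both values enter this r, which was not computed without that array. In LPS-G0 probe 1 read 0.25, 0.08, -0.14 and 0.76, and it was detected on 3 arrays. In C-G0 it read 0.20, -0.23, -0.79 and -0.08 and was detected on 2. The groups overlapped, and the filter left Cish out of the tests.

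Socs1 was detected on 2 of 4 LPS-G0 arrays, on 1 of 4 in LPS-G2 and in each saline group, and on 0 of 4 in LPS-G1. The LPS-G0 arrays read 0.38, 1.84, -0.97 and 0.49, and the detected ones are those at 1.84 and 0.49. The one at 0.49 is replicate 4, whose labels conflict. LPS-G1, where it was dim throughout, read -0.17, -0.02, -0.58 and 0.44, within the range of LPS-G0, and no fold is given. Socs2 has 10 spots per array and was still not detected on any array, so it has no measured level in Cy3.

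The other genes of the pathway were counted as a list of 76 genes, of which 73 were on the array, 31 were detected on 24 arrays and 16 on 0. The list holds the other JAKs and STATs, further inhibitors, receptors, ligands and target genes. In LPS-G1 vs. LPS-G0, 2 of the 41 tested passed the adjusted p, 1 higher and 1 lower, beside 8.93% of all probes tested. The higher one entered the fit only through LPS-G1, the group where it was high. Of the 5 members tested 0 passed the adjusted p. In the other 11 comparisons 0 of the list's tested genes passed with limma. There the lowest count at an unadjusted p under 0.05 was 0 of 43 in LPS-G2 vs. C-G2, beside 1.09% of all probes tested. The highest was 15 of 43 in C-G1 vs. C-G0, beside 27.9%.

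Pias3, whose protein binds activated STAT3, had the positive difference. The LPS-G0 arrays read -1.22, -0.65, -1.82 and -1.15. The LPS-G1 arrays read -0.28, -0.21, 0.62 and -0.16. The probe was detected on 4 of 4 LPS-G1 arrays, 2 of C-G0, 1 of LPS-G2 and 0 of LPS-G0. It entered this fit only through LPS-G1, where it was highest, and no LPS-G0 value was well above background. The ratios are therefore not read as a fold between the groups. The fitted value was 1.20 (SE 0.34, limma adjusted p = 0.0374), for a probe chosen through its bright group, so that this p is no support for a difference. Without the filter the adjusted p was 0.143, with 24 arrays in the fit 0.105, and with normexp it was 0.141 at a difference of 0.28.

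Ccnd1, cyclin D1, a target that drives the cell cycle, was the gene that fell. The LPS-G0 arrays read 0.31, 0.32, 0.21 and 0.48, and the LPS-G1 arrays -0.07, -0.41, -0.24 and -0.52. These groups did not overlap, as in 21.9% of all probes in this pair, and the difference was -0.64 (SE 0.16, limma adjusted p = 0.029). With normexp it was -0.37 with an adjusted p of 0.0594, without the filter the adjusted p was 0.0858, and with 24 arrays in the fit it was 0.132. Of 4 tested cell division markers 2 were lower in the same pair at an unadjusted p under 0.05, with a median of -0.54 over the list. Of all probes tested, 26.9% had an unadjusted p under 0.05 there. Of the 39 markers tested 1, an erythroid one, passed the adjusted p, lower, beside 8.93% of all probes. With LPS-G0 replicates 3 and 4 left out the count of cell division markers was 2 of 4 again and 0 markers passed. The part of these cells was not tested. Without LPS-G0 replicates 3 and 4 the adjusted p was 0.23 for Pias3 and 0.129 for Ccnd1, with differences of 0.93 and -0.63, and with the slide as a block it was 0.0658 and 0.0529.

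**Figure D4:**
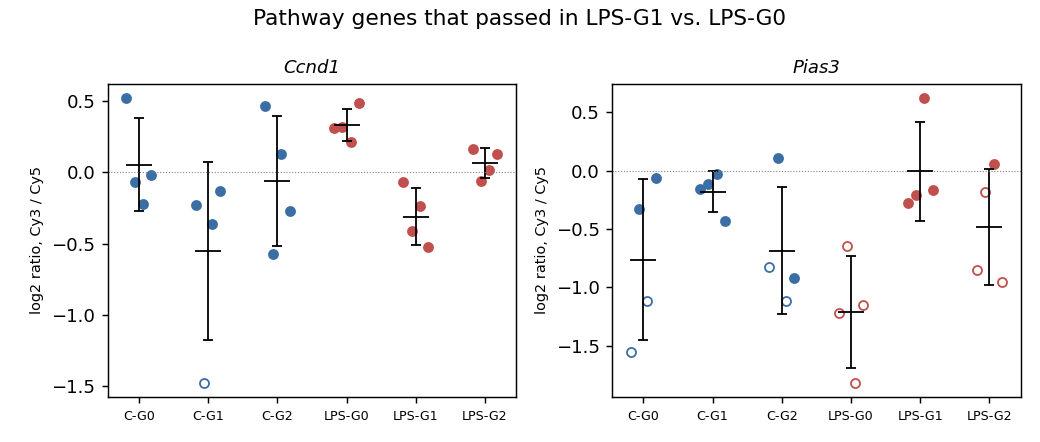
Points are the log2 ratios of Cy3 over Cy5 of Ccnd1 and Pias3 on each array, open where the probe was not well above background in Cy3, with the mean and SD of the 4 arrays of each group. In Ccnd1 the LPS-G1 arrays lie between -0.52 and -0.07 and the LPS-G0 arrays between 0.21 and 0.48, and in Pias3 the LPS-G0 points are all open.

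For the other comparisons the genes with the 2 smallest p-values are given as values, none of which passed. In LPS-G0 vs. C-G0, where 0.00969% of all probes passed, these were Lif, a ligand of the IL-6 family, at 0.95 (SE 0.32, adjusted p = 0.224), and Il7r, the receptor of IL-7, at -0.73 (SE 0.27, adjusted p = 0.246). They stood at 1.03 and -0.73, both with an adjusted p of 0.538, without LPS-G0 replicates 3 and 4. In LPS against saline over the 3 diets they were Lif at 0.58 (SE 0.19) and the inhibitor Socs5 at -0.47 (SE 0.17), both with an adjusted p of 0.516, and without those arrays 0.61 and -0.50.

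In LPS-G2 vs. LPS-G0 they were the receptor chains Ifngr2 at 0.48 (SE 0.15) and Csf3r, of neutrophils, at 0.59 (SE 0.22), both with an adjusted p of 0.597. These were 0.46 and 0.53 without LPS-G0 replicates 3 and 4. In this pair 4 of the 39 markers tested had an unadjusted p under 0.05, all higher, beside 8.23% of all probes tested. They were 3 of 4 neutrophil markers, S100a8 at 0.92 (SE 0.26), S100a9 at 0.71 (SE 0.28) and Camp at 0.65 (SE 0.21), and 1 of 4 monocyte markers, Lyz2 at 0.87 (SE 0.29). Of the 39, 0 passed the adjusted p. Without LPS-G0 replicates 3 and 4, 2 of 4 neutrophil markers were higher at an unadjusted p under 0.05. The part of these cells in Csf3r and Ifngr2 was not tested. In LPS-G1 vs. LPS-G2 the genes were Csf3r at -0.55 (SE 0.22) and Il6st, the chain shared by receptors of the IL-6 family, at 0.68 (SE 0.28), both with an adjusted p of 0.679.

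In C-G1 vs. C-G0 the kinase gene Pim1, a STAT target, stood at -0.79 (SE 0.19) and Bcl2l1, which encodes the survival protein Bcl-xL, at -1.01 (SE 0.25), both with an adjusted p of 0.104. In C-G2 vs. C-G0 Il7r stood at -0.97 (SE 0.31, adjusted p = 0.22) and the survival gene Bcl2 at -0.59 (SE 0.19, adjusted p = 0.233). In C-G1 vs. C-G2 Osm, a ligand of the IL-6 family, stood at -0.86 (SE 0.25) and the survival gene Mcl1 at 0.51 (SE 0.19), both with an adjusted p of 0.323. In LPS-G1 vs. C-G1 Socs5 stood at -0.76 (SE 0.30) and Osm at 0.60 (SE 0.25), both with an adjusted p of 0.95. In LPS-G2 vs. C-G2 Irf9, of interferon signaling, stood at -0.47 (SE 0.28) and Pim1 at 0.29 (SE 0.19), both with an adjusted p of 1. For the LPS response on G1 minus that on G0 Bcl2 stood at 0.68 (SE 0.28) and Bcl2l1 at 0.75 (SE 0.35), both with an adjusted p of 0.999. On G2 minus G0 Il7r stood at 1.08 (SE 0.43) and Bcl2 at 0.68 (SE 0.28), both with an adjusted p of 0.832. Without LPS-G0 replicates 3 and 4 the first pair stood at 0.54 and 0.63 and the second at 1.07 and 0.54. The comparisons with C-G0 share its arrays, and those with LPS-G0 share that group's.

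Among the members themselves, the ratios over the 24 arrays of Jak2 and Stat6 had a Pearson r of 0.551, those of Jak1 and Stat3 one of 0.517, and those of Jak2 and Stat3 one of -0.476. These arrays share 3 slides and the reference. Over the same 24 arrays and all tested probes, the genes with the ratios most like Stat3 were Slc35e1 (r = 0.896), Hyou1 (0.867), Hiatl1 (0.864), Snx27 (0.859) and RGD1305178 (0.853). For Stat6 the most alike were Notch3 (0.76), Sobp (0.746), LOC100912427 (0.73), Mfsd6 (0.721) and Gsk3b (0.714). For Jak2 they were Hist2h2aa3 (0.809), Slit1 (0.794), Clpsl2 (0.774), Tmie (0.772) and Arid3a (0.766).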

How the data were processed

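The authors read the arrays with Agilent's scanner software (10.10.1.1 per the file headers, 10.7.3.1 in the submitters' processing notes). The deposited intensities were background subtracted and dye-balanced (Lowess) by the authors in that software. The deposited log10 ratios of Cy5 over Cy3 were turned to log2 of Cy3 over Cy5. A series table of 1511424 log10 values equalled them. Outlier spots (679 to 1133 per array) were left out and spots of a probe averaged, and a probe was detected where at least 50% of its spots were. The number of arrays limits the precision. Comparisons among C-G0 and the 3 LPS groups used a fit of these 16 arrays (10315 probes tested), and the others a fit of all 24 (10708), with limma 3.58.1 in R 4.3.3, two-sided, with Benjamini-Hochberg adjustment over all probes. The fit was tested on simulated data. Named pathway genes passed the adjusted p or had the 2 smallest p-values. The members and lists were chosen with earlier results of these data known. Alternatives covered the arrays, slide, pairing, filter, background, channel, labels and the methods' test.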

Additional observations from a re-analysis of the deposited data

Results flagged for a closer look

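Of the 66 groups of 4 arrays, 11 probes in 6 groups, 3 held an array far from the other 3, and chance gives about 1 such group in 20. Stat3 in LPS-G0 replicate 1 read -0.3064, above the other 3 arrays at -0.71 to -0.64. Stat6 in LPS-G0 replicate 3, a rat with conflicting labels, read -0.1012, below the others at 0.52 to 0.59. Socs2 in C-G1 replicate 4 read -0.7671 against 0.20 to 0.37, and the probe was not well above background on any of these arrays.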

How the results depend on the processing

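In all 12 comparisons 0 members passed the adjusted p under every alternative run. The 413 member values under the alternatives that change the fit gave a smallest adjusted p of 0.0754, and 20 changed sign. The 1472 values with 1 array left out gave a smallest of 0.0636, for Stat6 in C-G1 vs. C-G0, and 54 changed sign. In the Cy3 channel alone 6 values moved by more than the spread between arrays, of Jak1, Jak2 and Stat4. The number of all probes that passed moved with the processing, while the member count was already 0 and could not fall. In LPS-G1 vs. LPS-G0, 921 probes passed, but 335 with the slide as a block, 1160 with normexp, 3 with 24 arrays in the fit, 0 in Cy3 alone, without the filter or without LPS-G0 replicates 3 and 4, and 0 to 1941 with 1 array left out, the lowest without LPS-G0 replicate 1 or 4 or LPS-G1 replicate 4 and the highest without C-G0 replicate 1. The replicate numbers of the titles share only a number. Arrays of different groups had a mean correlation of 0.111 with the same number and -0.0378 with another. With the replicate block the counts were 1268 in LPS-G1 vs. LPS-G0, 600 in place of 3 in C-G1 vs. C-G0 and 43 in place of 3 in C-G2 vs. C-G0, and 0 members passed. Without C-G0 replicate 4 those last pairs reached 963 and 353, and without C-G0 replicate 1 LPS-G0 vs. C-G0 reached 1139 in place of 1. Pias3 entered the fit for LPS-G1 vs. LPS-G0 only through LPS-G1, where it was highest, so its count of passes is no support. Pias3 and Ccnd1 passed in 10 and 11 of 23 alternatives. Most of these left out an array of C-G0 or LPS-G2, groups outside the comparison, and the differences stayed at 1.20 and -0.64. With 1 array of LPS-G0 or LPS-G1 left out, Pias3 passed only without LPS-G1 replicate 1. Ccnd1 passed only without that array or without LPS-G0 replicate 3. Among the remaining alternatives both passed only with the replicate block. The causes were not tested.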
